A study of Rattus norvegicus with 47 samples.

Results

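The immediate early response genes Fos, Fosb, Jun, Junb, Egr1, Atf3, Ier2 and Myc were followed in rat liver lesions and in the liver around them. The members were the 8 listed symbols, and every probe set annotated to 1 of them alone was used, which gave 11 probe sets of 31042 on the array and 8 genes of 14217. Lesions came from male Wistar rats given N-nitrosomorpholine, a nitrosamine that starts liver tumours, at 250 mg/kg at 4 weeks of age. Phenobarbital, a promoter of liver tumours, followed after 3 weeks of recovery at a daily 50 mg/kg, for 17 months at most, so the surrounding liver was exposed to both agents as well. Frozen tissue gave 5 nodules (3 animals), 6 adenomas (2 animals), 4 carcinomas (3 animals), 4 carcinomas labelled with a beta-catenin mutation (3 animals) and 7 samples of surrounding liver (5 animals). Formalin-fixed, paraffin-embedded (FFPE) tissue, taken by laser microdissection, gave 9 foci (3 animals), 5 adenomas (3 animals) and 4 samples of surrounding liver (4 animals). Values are the authors' log2 probe set values, changes are log2 differences ± standard error (SE) of the fit, and a gene was called at an adjusted p under 0.05.

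Immediate early genes are switched on within minutes of a stimulus and need no new protein for it. Fos and Fosb pair with Jun or Junb to form the transcription factor AP-1. Egr1 is a zinc finger factor induced through serum response factor, Atf3 is a stress-induced factor of the bZIP family, Ier2 is a nuclear protein of the early growth factor response, and Myc drives ribosome production and cell growth. In liver these genes are known to respond to partial hepatectomy, and also to excision and handling of the tissue. The values were therefore set against lesion type, against the animal, and against the control set, the label that ties each lesion to 1 sample of surrounding liver.

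Promoters are shown because the members split below by what their values followed, and Egr1, Ier2 and Junb were among the 4 members with an entry in the RefSeq promoter table (build GRCr8, 250 bases before to 50 after the gene's start). Capitals mark a CArG box (the core of the serum response element), a cyclic AMP response element (CRE, TGACGTCA), its half-site (CGTCA or TGACG) or a TATA box, searched on both strands, with TATAAA as the TATA box.
Egr1, chr18:26736828-26737127, plus strand: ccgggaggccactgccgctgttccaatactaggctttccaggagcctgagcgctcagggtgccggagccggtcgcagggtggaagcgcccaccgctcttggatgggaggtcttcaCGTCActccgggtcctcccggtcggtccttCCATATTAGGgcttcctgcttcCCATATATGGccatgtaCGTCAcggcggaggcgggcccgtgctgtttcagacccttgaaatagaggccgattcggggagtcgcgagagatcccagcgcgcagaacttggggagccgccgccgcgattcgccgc
Ier2, chr19:40399123-40399422, plus strand: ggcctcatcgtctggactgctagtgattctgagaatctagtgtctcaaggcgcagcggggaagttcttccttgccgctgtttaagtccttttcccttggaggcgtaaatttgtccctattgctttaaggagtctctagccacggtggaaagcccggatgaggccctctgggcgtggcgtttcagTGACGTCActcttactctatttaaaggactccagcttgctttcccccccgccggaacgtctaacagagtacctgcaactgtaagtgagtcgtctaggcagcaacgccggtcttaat
Junb, chr19:40080876-40081175, plus strand: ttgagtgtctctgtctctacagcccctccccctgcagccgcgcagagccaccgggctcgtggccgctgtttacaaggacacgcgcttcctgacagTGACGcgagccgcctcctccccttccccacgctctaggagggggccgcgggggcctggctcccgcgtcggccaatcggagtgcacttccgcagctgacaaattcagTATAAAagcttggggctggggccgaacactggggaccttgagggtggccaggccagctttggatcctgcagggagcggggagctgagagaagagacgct
The Egr1 promoter held 2 CArG boxes, the first bases of which lie 105 and 83 bases before the start, and 2 CRE half-sites. The Ier2 promoter held a full CRE 66 bases before the start, which also contains the half-site on each strand, and the Junb promoter held a CRE half-site and a TATA box. Of 33469 rat promoters of this length, 1.64% held a CArG box, 1.83% a full CRE, 21.2% a half-site and 14.2% the TATA box. The entry of Fosb, the other matched member (chr1:88089135-88089434, minus strand), had only a TATA box of these motifs. That entry lies wholly inside the gene's span (chr1:88082324-88089506), so the bases before the outer start of Fosb were not searched. An AP-1 site (TGACTCA), held by 4.63% of promoters, was in none of the 4 entries. Fos, Jun, Atf3 and Myc are named only.

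Before the comparisons, 3 features of the arrays bear on these genes. Carcinomas lie only in the control sets 10 N_3, 21 N and 23 N_2, and nodules and adenomas only in 10 N_1, 11 N, 14 N_1 and 23 N_1, so the kind of set and the carcinoma cannot be told apart among lesions. The FFPE samples have 1 control set per animal. The surrounding liver of animal 21 stood apart in Fos, Fosb and Atf3, and results that rest on it are given without it. Alb, which encodes albumin, lay between 14.95 and 15.13 on the frozen arrays and between 14.15 and 14.58 on the FFPE arrays, so all carried hepatocyte RNA. Array medians were 5.49 to 5.59 on the frozen and 5.58 to 5.68 on the FFPE arrays used in comparisons. FFPE adenoma replicate 4 had the lowest mean correlation with the other FFPE arrays, at 0.886, against 0.917 to 0.9395 for the rest. Where a gene has several probe sets, the one with the highest mean in a fixation stands for it, which differs between fixations for Fos (1375043_at frozen, 1371283_at FFPE) and Jun (1389528_s_at frozen, 1374404_at FFPE).

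Myc was higher in lesions than in surrounding liver and was the 1 member called for lesion type in frozen tissue with 1 probe set a gene. Its log2 value was 9.62, 9.54, 9.23, 9.34 and 8.78 in the frozen nodules. In the adenomas it was 9.62, 9.01, 9.46, 9.20, 9.43 and 9.49. The carcinomas had 9.68, 9.92, 9.79 and 9.29 and those with the beta-catenin mutation 10.36, 9.81, 9.62 and 8.51. The surrounding liver ranged from 7.61 to 9.51 with values of 8.86, 8.94, 9.01, 8.09, 9.51, 7.71 and 7.61, so every lesion group overlapped it, and the highest value came from animal 21. Set against the surrounding sample of its own control set, Myc was higher in 19 of 19 frozen lesions, by 0.22 to 2.02 with a median of 0.90. Lesions of 1 control set share that sample, so these 19 differences rest on 7 surrounding samples of 5 animals and are not independent. The same holds for every such count below.

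In the fit by limma, Myc rose in adenomas by 1.36 ± 0.20 (adjusted p = 7.1e-05), in beta-catenin carcinomas by 1.10 ± 0.20 (adjusted p = 0.00078) and in carcinomas by 0.93 ± 0.21 (adjusted p = 0.0064). The carcinoma call was lost without carcinoma replicate 4, from animal 23 (0.71, adjusted p = 0.0865). In nodules the change was 0.58 ± 0.20 and did not pass (adjusted p = 0.205). The background was large, since 25.0% of genes were called in adenomas, 11.4% in carcinomas and 17.3% in beta-catenin carcinomas, and 0.225% in nodules. Of the 8 members, 2 were called in adenomas (Myc and Atf3), 1 in carcinomas and 1 in beta-catenin carcinomas (Myc in both), and 0 in nodules by limma, where 3 had an unadjusted p under 0.05, as 12.7% of all genes did. The ordered group means were 9.67 ± 0.27 (SD, n = 4) in carcinomas, 9.57 ± 0.78 (n = 4) in beta-catenin carcinomas, 9.37 ± 0.22 (n = 6) in adenomas, 9.30 ± 0.33 (n = 5) in nodules and 8.53 ± 0.73 (n = 7) in surrounding liver. In the fit with animals the order of carcinomas and adenomas turned, with a change of -0.43 ± 0.24 for carcinomas over adenomas. No pair of lesion types next to each other in stage was called for Myc, with adjusted p = 0.129 for adenomas over nodules, 0.311 for carcinomas over adenomas and 0.999 for beta-catenin carcinomas over carcinomas.

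FFPE lesions also tended to lie above their own surrounding liver in Myc. Foci had 8.55, 8.83 and 8.41 in animal 10, 8.73, 9.09 and 7.32 in animal 18, and 8.87, 8.47 and 8.68 in animal 7. FFPE adenomas had 8.38, 8.50, 8.75, 7.74 and 8.90, and the surrounding liver 7.83, 6.79, 6.39 and 8.62. Myc was higher than in the own surrounding sample in 13 of 14 FFPE lesions, but groups overlapped through the surrounding sample of animal 7. The changes of 1.03 ± 0.30 in foci (adjusted p = 0.0575) and 1.02 ± 0.33 in adenomas (adjusted p = 0.134) did not pass. The foci call was made without any 1 of surrounding replicate 4 (adjusted p = 0.0242), foci replicate 6 (0.0229), foci replicate 8 (0.0490) and adenoma replicate 4 (0.0493). Of the 8 members, 0 were called by limma in foci, where 3.18% of genes were called and 3 members had an unadjusted p under 0.05, as 13.3% of all genes did. In FFPE adenomas 0 members were called by limma, where 2.16% of genes were, and 1 member had an unadjusted p under 0.05, as 12.1% of all genes did.

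**Figure D1:**
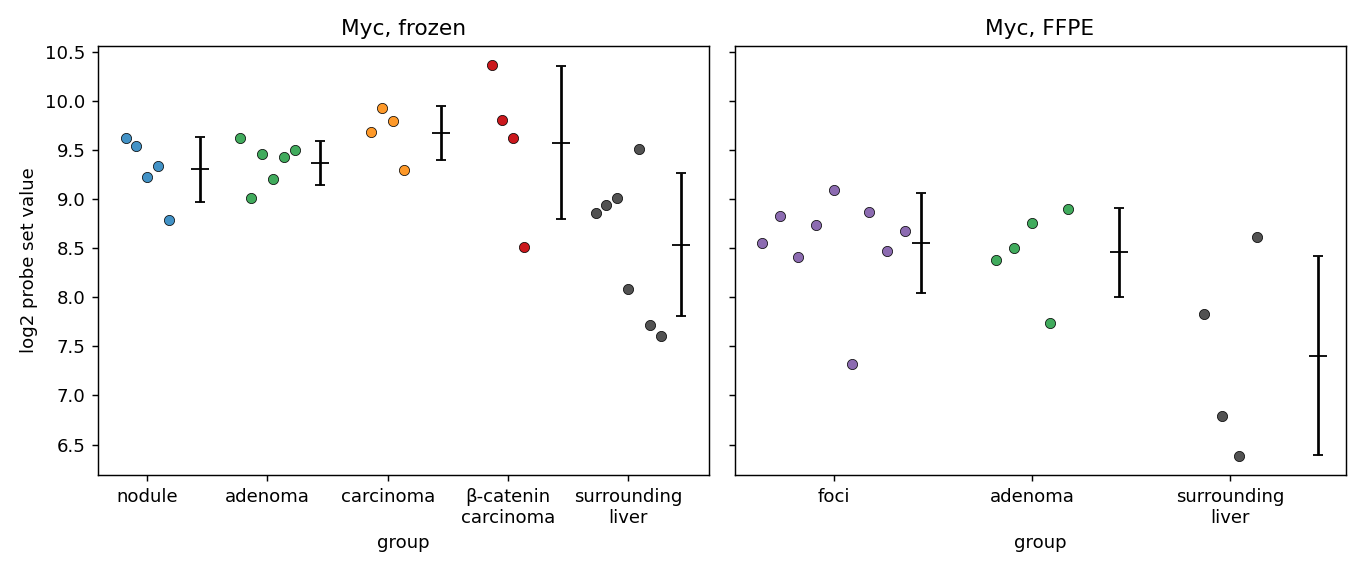
Log2 value of Myc (y axis) in each lesion group and in surrounding liver (x axis), frozen at left and FFPE at right; points are arrays and bars mean ± SD. The 4 frozen lesion groups have means of 9.30 to 9.67, above 8.53 in surrounding liver, whose 7 values run from 7.61 to 9.51.

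Myc also differed between animals. In a test of all 5 animals with lesion type in the same model, Myc had F = 10.6 (adjusted p = 0.0102) and for lesion type F = 15.4 (adjusted p = 0.000314). The surrounding liver of animal 23 had 7.71 and 7.61, that of animal 14 had 8.09, and those of animals 10, 11 and 21 had 8.86 to 9.51. The genes most like Myc after subtracting group means, over 26 frozen arrays, were Akr1b8, an aldo-keto reductase (Pearson r = 0.88), and Gstp1, the glutathione transferase that marks rat liver foci (r = 0.87). Gstp1 had 10.30 and 10.48 in the surrounding liver of animal 23, 11.63 in that of animal 14, and 12.74, 13.11, 13.47 and 13.21 in the surrounding samples of animals 10, 10, 11 and 21. The surrounding samples low in Myc were thus low in Gstp1, over arrays that share animals. Lesion content of the surrounding samples was not tested.

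Genes listed as Myc network or Myc targets were higher wherever they were called. The list also holds Mxd1, Mxd4, Mxi1, Mnt, Mycn and Mycl, so its counts are not those of Myc targets alone. Of 21 measured, 7 rose in frozen adenomas, 4 in carcinomas, 9 in beta-catenin carcinomas, 2 in FFPE foci and 1 in FFPE adenomas, where 25.0%, 11.4%, 17.3%, 3.18% and 2.16% of all genes were called in either direction. Their median change was 0.23 in adenomas, 0.23 in carcinomas and 0.31 in beta-catenin carcinomas, beside 0.02, -0.02 and -0.01 over all 14217 genes. Cdk4, a kinase of the G1 phase, rose by 1.14 in beta-catenin carcinomas (adjusted p = 0.000101) and 0.82 in carcinomas (adjusted p = 0.0041). Cdk4 was also higher by 0.79 in surrounding liver of carcinoma control sets than in that of the other sets (adjusted p = 0.0218), so its rise in carcinomas cannot be told apart from the set among lesions. Odc1, the first enzyme of polyamine synthesis, rose by 0.76 in carcinomas (adjusted p = 0.00134), 0.69 in beta-catenin carcinomas (adjusted p = 0.00128), 0.62 in adenomas (adjusted p = 0.00153) and 0.68 in FFPE foci (adjusted p = 0.0379). Nop56 and Nop58, of the small nucleolar particles that modify ribosomal RNA, rose by 0.66 and 0.70 in adenomas (adjusted p = 0.00021 and 0.00523).

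Other cell types moved with lesion type too. Of 9 macrophage markers, 4 fell in adenomas, 4 in carcinomas and 6 in beta-catenin carcinomas, where 25.0%, 11.4% and 17.3% of all genes were called. Their mean log2 level was 8.01 to 9.19 in adenomas, 7.91 to 8.86 in carcinomas, 7.72 to 8.56 in beta-catenin carcinomas and 8.90 to 9.49 in surrounding liver. Cd163, a scavenger receptor of macrophages, fell by 1.75 in beta-catenin carcinomas (adjusted p = 7.6e-05). The mean level of 5 markers of cholangiocytes, the bile duct cells, was 6.51 to 9.11 in adenomas and 5.59 to 6.36 in surrounding liver. It was 6.35 to 8.51 in nodules, 5.43 to 6.57 in carcinomas and 5.39 to 8.46 in beta-catenin carcinomas, which all overlapped surrounding liver. In bulk samples a change in cell number and one in RNA per cell cannot be told apart. The part of either cell type in the lesion changes was not tested.

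In frozen tissue Egr1 was called for the animal and not for the lesion type, and the animal call rested on animal 11. All 3 frozen arrays of animal 11 were high, at 10.31 and 10.21 in its nodules and 10.74 in its surrounding liver. Animal 10 had 8.03 to 8.40, animal 21 had 6.98 to 8.52 and animal 23 had 7.64 to 8.45, lesions and surrounding liver alike. Animal 14 was the most spread, with 6.86 in its nodule, 9.47, 8.30 and 8.99 in its adenomas and 7.24 in its surrounding liver. No array of another animal reached those of animal 11, and within animal 11 the lesions and the surrounding liver differed by at most 0.52.

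The animal took up 67.7% of the variation of Egr1 between the 26 frozen arrays and the lesion type 9.23%, against medians of 23.8% and 33.7% over all genes. The test for animal had F = 16.2 (adjusted p = 0.00096), and that for lesion type F = 2.57 (adjusted p = 0.16). Of the 8 members, 2 were called for animal (Egr1 and Myc), where 2.29% of genes were called, and 1 for lesion type (Myc), where 25.9% were. The Egr1 result rests on animal 11, since without that animal F was 0.99 (adjusted p = 0.698). By group, Egr1 averaged 8.70 ± 1.51 (SD, n = 5) in nodules, 8.44 ± 0.70 (n = 6) in adenomas, 8.20 ± 0.18 (n = 4) in beta-catenin carcinomas, 7.79 ± 0.60 (n = 4) in carcinomas and 8.42 ± 1.09 (n = 7) in surrounding liver. All group means lay within the spread of the nodules. The nodule group had the highest mean because 2 of its 5 arrays came from animal 11. Adenomas over nodules had a change of 1.10 ± 0.37 with animals in the model (adjusted p = 0.158) and -0.25 without them (adjusted p = 0.836), so its direction depended on the animal term.

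Egr1 differed between animals in FFPE tissue too, where the rats are 7, 10, 14 and 18. Animal 14 was low, with 6.17 and 4.68 in its adenomas and 3.67 in its surrounding liver. Animal 7 had 6.60, 6.31 and 6.02 in foci, 6.47 in its adenoma and 8.09 in surrounding liver. Animal 18 had 6.62, 7.23 and 5.89 in foci and 7.08 in surrounding liver. Animal 10 had 4.92, 6.28 and 5.61 in foci, 6.51 and 5.92 in adenomas and 6.67 in surrounding liver. The ranges overlapped between animals, the surrounding samples being the most spread.

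The FFPE test for animal had F = 8.05 (adjusted p = 0.0179), and Egr1 was the 1 member called, where 6.49% of genes were. It was lost without the surrounding sample of animal 14 (F = 2.99, adjusted p = 0.295) and without adenoma replicate 4 of the same animal (adjusted p = 0.0522), which has a source name that calls it surrounding tissue. The animals 10 and 14 were measured in both fixations, and the surrounding liver of animal 14 was the lowest surrounding array for Egr1 in each, at 7.24 frozen and 3.67 FFPE. Over all arrays of an animal, mean Egr1 was 8.16 in animal 10 and 8.17 in animal 14 in frozen tissue. In FFPE tissue it was 5.98 and 4.84, so animal 14 as a whole was low only there. Foci were lower than their own surrounding liver in 8 of 9, with a median of -1.19, and the fitted change was -0.74 ± 0.40 (adjusted p = 0.441). For lesion type in FFPE tissue 0 of 8 members were called by limma, where 2.72% of genes were, and 3 had an unadjusted p under 0.05, as 12.1% of all genes did.

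**Figure D2:**
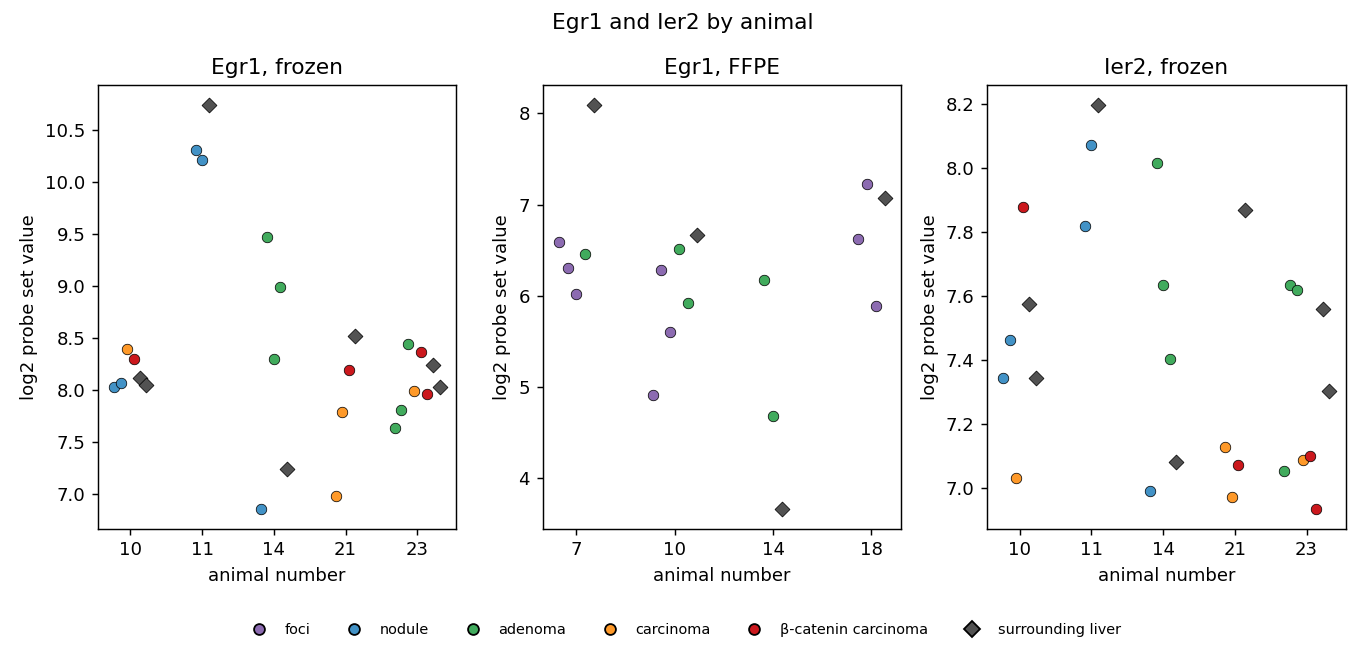
Log2 values of Egr1 (frozen and FFPE) and Ier2 (frozen) on the y axis for each animal on the x axis; each point is an array, coloured by lesion type, with diamonds for surrounding liver. The 3 Egr1 arrays of animal 11 lie at 10.21 to 10.74, above every other frozen array, and in FFPE tissue the surrounding liver of animal 14 is lowest at 3.67.

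Markers of granulocytes were high in animal 11 in frozen tissue, as Egr1 was. S100a8, a calcium-binding protein of neutrophils, was at 8.70 to 9.51 in animal 11 and at 4.02 to 7.28 in the other frozen animals, and S100a9, its partner, at 10.02 to 10.78 and at 4.75 to 8.48. Both were called for animal (F = 28.5, adjusted p = 2.6e-05, and F = 21.6, adjusted p = 0.00017). Over the list of 10 lymphocyte and granulocyte markers, 2 were called for animal in frozen and 1 in FFPE tissue, and the mean level was 5.81 to 5.96 in animal 11 and 4.55 to 5.46 in the others. Apart from S100a8 and S100a9, each marker of the list overlapped between animal 11 and the other frozen animals. Ptprc, for example, was at 7.35 to 7.99 in animal 11 and at 6.76 to 8.54 in the others. The 2 genes most like Egr1 over the 26 frozen arrays were Atp8b4 (r = 0.89) and Csf3r, the receptor for granulocyte colony-stimulating factor (r = 0.86). Both correlations include the arrays of animal 11, where Atp8b4 was at 6.27 to 6.74, against 4.83 to 5.70 elsewhere. Csf3r was at 6.43 to 7.21 in animal 11 and at 3.15 to 4.86 elsewhere. In FFPE tissue the 2 did not run together across animals, since S100a9 was at 8.22 to 8.89 in animal 7 and 4.92 to 6.43 in animal 18, while mean Egr1 was 6.70 in both. Animal 14, low in Egr1, had S100a9 at 4.94 to 6.83, and animal 10 at 5.92 to 8.09. The part of granulocytes in the Egr1 levels was not tested.

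Ier2 had the highest correlation with Egr1 among the 7 other members (r = 0.76 over 26 arrays that share animals, those of animal 11 included). It was at 7.82, 8.07 and 8.20 in animal 11, and at 6.94 to 8.02 in the others, so the ranges overlapped. The animal test did not pass (F = 5.00, adjusted p = 0.119). The carcinomas were narrow and low, at 7.03, 7.13, 6.97 and 7.09, against 8.02, 7.64, 7.40, 7.05, 7.63 and 7.62 in adenomas. Carcinomas over adenomas had a change of -0.69 ± 0.21 (adjusted p = 0.0678), which passed without beta-catenin carcinoma replicate 1 (adjusted p = 0.0482) or adenoma replicate 4 (adjusted p = 0.0381). By limma 0 members were called in that comparison, where 2.95% of genes were, and 3 members had an unadjusted p under 0.05, as 21.9% of all genes did. The most like genes were Dusp6, a phosphatase of the ERK kinases (r = 0.88), and Tlr1 (r = 0.83).

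Junb and 2 of the 3 Jun probe sets had higher mean values in the carcinoma control sets. Jun probe set 1374404_at had 7.16, 7.57 and 7.28 in the surrounding liver of the carcinoma sets (10 N_3, 21 N and 23 N_2), against 6.69, 6.75, 6.79 and 6.37 in that of the other sets. The 2 kinds of surrounding liver did not overlap. Its lesions did not overlap either, with 6.79 to 7.71 in the 8 carcinomas of the carcinoma sets, against 5.71 to 6.74 in the 11 nodules and adenomas of the other sets. Jun probe set 1389528_s_at had 8.79, 9.75 and 9.25 in surrounding liver of carcinoma sets, against 8.42, 8.69, 9.01 and 8.49 in the others, where the ranges overlapped. Its lesions overlapped as well, at 8.71 to 9.48 in carcinoma sets and 7.93 to 8.79 in the others. Junb had 7.03, 7.03 and 7.41 in surrounding liver of carcinoma sets, against 6.74, 6.79, 6.09 and 6.61 in the others, without overlap. Its lesions overlapped at 6.51 to 7.64 and 6.28 to 6.74. The share of all probe sets that split without overlap was not counted, so the splits are given as values only. Between the 2 kinds of surrounding liver, 9.78% of all probe sets were called.

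Within the 2 animals that have both kinds of set, the surrounding liver differed the same way. Jun 1374404_at was higher in the carcinoma set by 0.47 in animal 10 and 0.90 in animal 23, Jun 1389528_s_at by 0.37 and 0.76, and Junb by 0.29 and 0.80. The third probe set of Jun, 1369788_s_at, went the other way, with differences of -0.60 in animal 10 and -0.27 in animal 23. Its surrounding values were 7.33, 7.92 and 7.75 in carcinoma sets and 7.94, 7.98, 8.83 and 8.01 in the others. The probe sets of Jun disagree, so no direction is given for the gene as a whole.

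Across the 7 surrounding arrays, carcinoma sets over other sets gave 0.68 ± 0.14 for Jun 1374404_at (adjusted p = 0.0158 over all probe sets, of which 9.78% were called). With 1 probe set a gene, 0 of 8 members were called by limma where 6.15% of genes were, and 2 had an unadjusted p under 0.05, as 24.5% of all genes did. Junb had 0.60 ± 0.18 (adjusted p = 0.0907) and Jun 1389528_s_at 0.61 ± 0.22 (adjusted p = 0.136). With the animal as a block, Jun 1389528_s_at passed (0.56, adjusted p = 0.0393). In the fit of all 26 frozen arrays, the control set within animals was called for Jun 1374404_at (F = 9.18, adjusted p = 0.0366 over all probe sets, of which 5.26% were called). That test rests on animals 10 and 23 alone, since no other animal has more than 1 frozen set. Over genes 0 members were called by limma where 2.71% were, and 1 had an unadjusted p under 0.05, as 15.6% of all genes did. That member, Junb, had F = 6.56 (adjusted p = 0.125), which passed without beta-catenin carcinoma replicate 1 (adjusted p = 0.0321). The control set took up 73.7% of the variation of Jun 1374404_at, and 61.4% of that of Junb, against a median of 38.0% over all genes. Lesion type alone took up 61.5% of the variation of Jun 1374404_at, 44.8% of that of Myc and 31.3% of that of Junb, against a median of 33.7%. Jun 1374404_at was also called for lesion type (F = 5.76, adjusted p = 0.0204 over all probe sets, of which 20.1% were called), and since carcinomas lie in sets of their own, lesion type and kind of set cannot be told apart among its lesions.

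**Figure D3:**
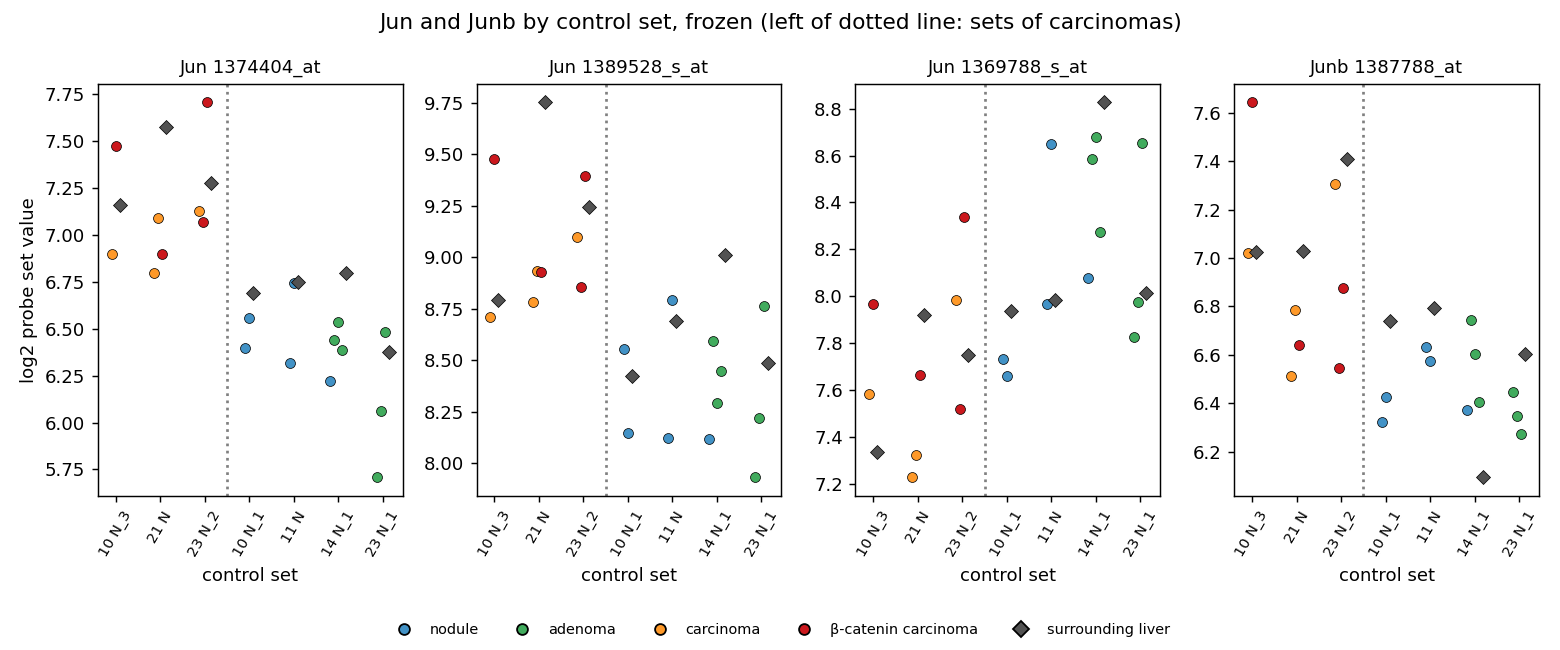
Log2 values of the 3 Jun probe sets and of Junb (y axis, a scale for each panel) in each control set (x axis), frozen arrays; points are arrays coloured by lesion type, diamonds are surrounding liver, and carcinoma sets stand left of the dotted line. Jun 1374404_at is at 6.79 to 7.71 in carcinoma sets and at 5.71 to 6.79 in the other sets, while the surrounding liver for 1369788_s_at is at 7.33 to 7.92 and at 7.94 to 8.83.

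Of 37 other immediate early genes measured, 3 were called between the 2 kinds of surrounding liver, 2 higher and 1 lower in carcinoma sets, a share near the 6.15% of all genes called there. Zfp36, which binds and destabilises messages of cytokines, was higher by 1.22 ± 0.14 (adjusted p = 0.0022), and Socs3, a feedback inhibitor of cytokine signalling, by 0.65 ± 0.14 (adjusted p = 0.0326). Gadd45b, a growth arrest gene, had a change of -0.80 ± 0.18 (adjusted p = 0.0387). Met, the receptor for hepatocyte growth factor, was higher by 1.89 ± 0.13 (adjusted p = 0.000147). No label used here names a batch, and what else sets the 2 kinds of set apart was not tested. The genes most like Jun were Rhob (r = 0.80) and Ywhaz (r = 0.74), and those most like Junb were Rara (r = 0.83) and Mfge8 (r = 0.81).

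By lesion, the direction and the call for Jun depended on the probe set. Frozen adenomas had a change of -0.54 ± 0.22 for 1389528_s_at (adjusted p = 0.0789), -0.66 ± 0.21 for 1374404_at (adjusted p = 0.0329 over all probe sets, of which 18.1% were called) and 0.13 ± 0.20 for 1369788_s_at (adjusted p = 0.695 over all probe sets). The comparison sets adenomas against surrounding liver of both kinds of sets, and with the control set as a block in the fit it was -0.25 for 1389528_s_at (adjusted p = 0.511). FFPE foci, where 1374404_at stands for Jun, had 7.41, 8.14, 7.95, 7.94, 8.30, 8.16, 7.70, 6.82 and 7.48, against 8.70, 8.05, 8.87 and 7.81 in surrounding liver. All 9 foci were below the surrounding liver of their own animal, with differences of -1.29 to -0.11, and the change was -0.75 ± 0.23 (adjusted p = 0.0699). These 9 foci share the surrounding samples of 3 animals. The other Jun probe sets had changes of 0.30 ± 0.28 (1389528_s_at) and -0.43 ± 0.43 (1369788_s_at) in foci, so the sign differed between probe sets here too. Junb in foci was also lower than in the own surrounding liver in 9 of 9, with a change of -0.35 ± 0.24 (adjusted p = 0.588).

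Junb and Jun differed between FFPE animals without passing the test (F = 5.79, adjusted p = 0.0526, and F = 5.29, adjusted p = 0.068). Junb was at 7.62 to 7.96 in animal 7 and at 6.27 to 7.12 in animal 14, which did not overlap. The share of all genes without overlap was not counted, and 6.49% were called for FFPE animal. Without FFPE adenoma replicate 3 the Junb test passed (adjusted p = 0.0189), and likewise without foci replicate 6 (adjusted p = 0.0497).

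The Fos probe set 1375043_at and Fosb were dim, and both had their highest frozen value in 1 surrounding sample. The Fos probe set 1375043_at had 7.15 in the surrounding liver of animal 21, against 4.37, 4.20, 4.39, 3.60, 3.76 and 4.06 in the other 6 surrounding samples. The carcinomas of that control set had 3.49, 3.47 and 3.55. Fosb had 4.53 in that same sample and 2.90 to 3.57 in the other 6, and its next highest frozen value was 4.22 in carcinoma replicate 1, from animal 10. Atf3 had 7.23 in the surrounding liver of animal 21 and 4.69 to 6.02 in the others. The other Fos probe set, 1371283_at, did not share this, with its lowest surrounding value of 3.71 in that sample and 3.83 to 4.43 in the others. The median position of 1375043_at among all probe sets of an array was the 26.5th percentile in frozen and the 9.56th in FFPE tissue, and that of Fosb the 9.65th and the 14.0th. That of 1371283_at was the 26.4th in frozen and the 52.2nd in FFPE tissue; calls of detection were not used here.

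Fos in adenomas was 5.62, 5.91 and 4.67 in animal 14 and 4.05, 4.30 and 4.49 in animal 23. It was higher than the own surrounding liver in 6 of 6, against 1 surrounding sample per animal. Its change was 0.73 ± 0.50 (adjusted p = 0.300), and without the surrounding sample of animal 21 it was 1.11 (adjusted p = 0.0072). The nodules had 4.17, 4.01, 4.71, 5.42 and 3.63, and the beta-catenin carcinomas 5.20, 3.55, 3.95 and 3.29. The other probe set, 1371283_at, had a change in adenomas of -0.01 ± 0.12 (adjusted p = 0.976 over all probe sets). In FFPE tissue Fos 1371283_at was 5.40 to 6.22 in foci, 5.06 to 5.99 in adenomas and 4.72 to 6.07 in surrounding liver, with a change of 0.03 ± 0.27 in foci (adjusted p = 0.975). Fosb stayed between 2.90 and 4.53 on frozen and between 3.20 and 4.87 on FFPE arrays, and the largest of its 7 frozen changes was -0.22 ± 0.21 in nodules (adjusted p = 0.717). The genes most like Fos were Egr2, a zinc finger factor of the Egr family (r = 0.79), and RT1-Ba (r = 0.78), and those most like Fosb were Atf3 (r = 0.70) and Mus81 (r = 0.66), with the single high sample included in each.

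**Figure D4:**
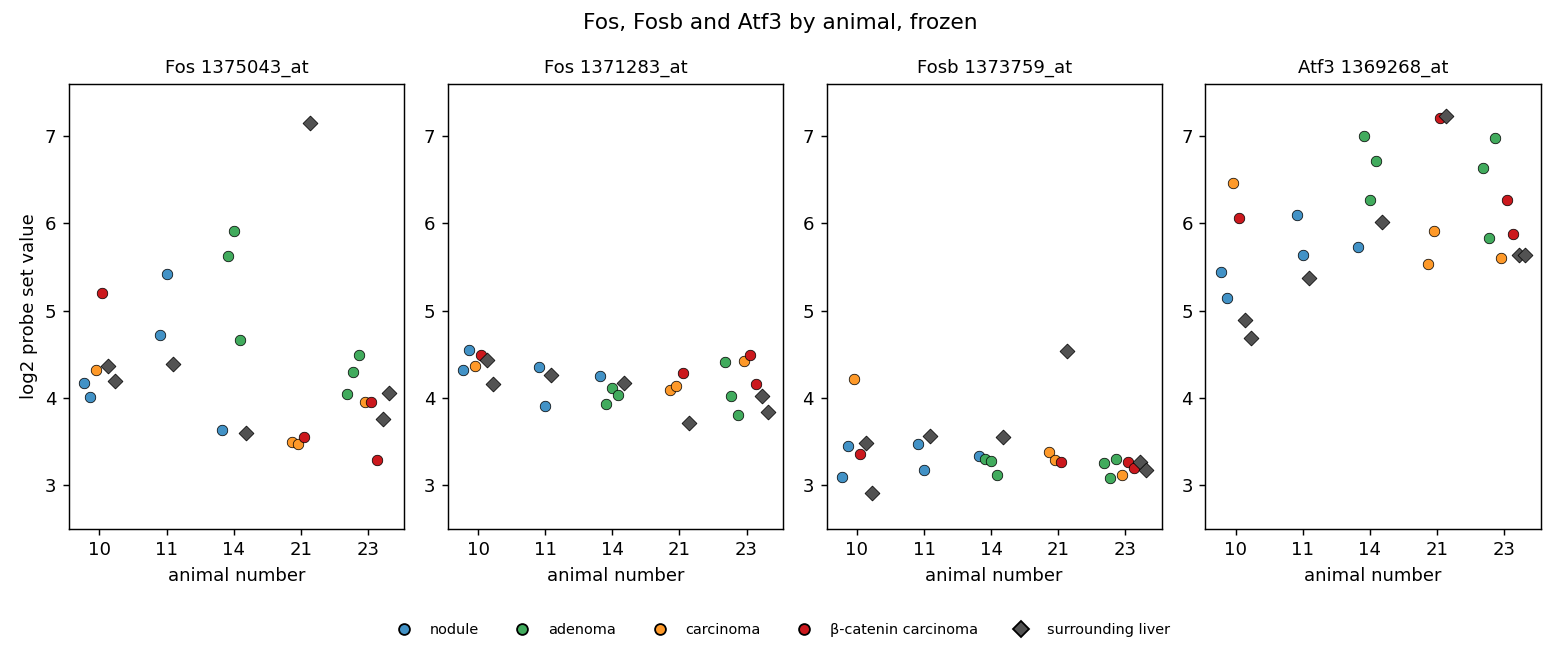
Log2 values of both Fos probe sets, Fosb and Atf3 (y axis, 1 scale) by animal (x axis), frozen arrays; points are arrays coloured by lesion type and diamonds are surrounding liver. The surrounding sample of animal 21 stands at 7.15 for Fos 1375043_at, 4.53 for Fosb and 7.23 for Atf3, and at 3.71 for Fos 1371283_at.

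Atf3 rose in frozen adenomas, with less stability than Myc. Adenomas had 6.99, 6.27, 6.72, 6.63, 5.83 and 6.97, against 4.89, 4.69, 5.38, 6.02, 7.23, 5.64 and 5.64 in surrounding liver. The groups overlapped through the adenoma at 5.83 and the surrounding samples of animals 14 and 21. All 6 adenomas were above their own surrounding liver, by 0.19 to 1.34, which is 1 sample for each of 2 animals. The change was 0.89 ± 0.32 (adjusted p = 0.044). The call was lost without any 1 of 18 of the 26 arrays (adjusted p over all 26 from 0.0099 to 0.128), in the fit by control set (0.88, adjusted p = 0.133) and without animal 11 (0.85, adjusted p = 0.07). Without the surrounding sample of animal 21 it was 1.05 (adjusted p = 0.0099). Atf3 in beta-catenin carcinomas had 6.06, 7.21, 6.27 and 5.87, with a change of 0.67 ± 0.33 (adjusted p = 0.172), and passed without that sample (0.99, adjusted p = 0.03).

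FFPE foci were all above their own surrounding liver in Atf3. They had 5.98, 5.78 and 4.67 in animal 10, where the surrounding liver had 4.30. In animal 18 they had 4.96, 5.20 and 4.79 beside 3.85, and in animal 7 they had 5.13, 4.34 and 4.92 beside 4.00. The change was 0.82 ± 0.31 and did not pass (adjusted p = 0.175). FFPE adenomas were higher in 4 of 5 (0.64 ± 0.34, adjusted p = 0.483). The genes most like Atf3 were Cct3, a subunit of the chaperonin that folds actin and tubulin (r = 0.71), and Gdf15, a secreted stress factor (r = 0.71).

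No member was called between the lesion types. By limma 0 of 8 were called for adenomas over nodules, for beta-catenin carcinomas over carcinomas and for FFPE adenomas over foci, and in each of these 0.0% of all genes were called. At an unadjusted p under 0.05, adenomas over nodules held 4 members and 15.9% of all genes. The carcinoma groups held 0 members and 5.09% of genes, and FFPE adenomas over foci 0 members and 4.45%. The fitted change and the difference of the plain group means had opposite signs in 17 of 80 changes of members, of which 0 were called.

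**Figure D5:**
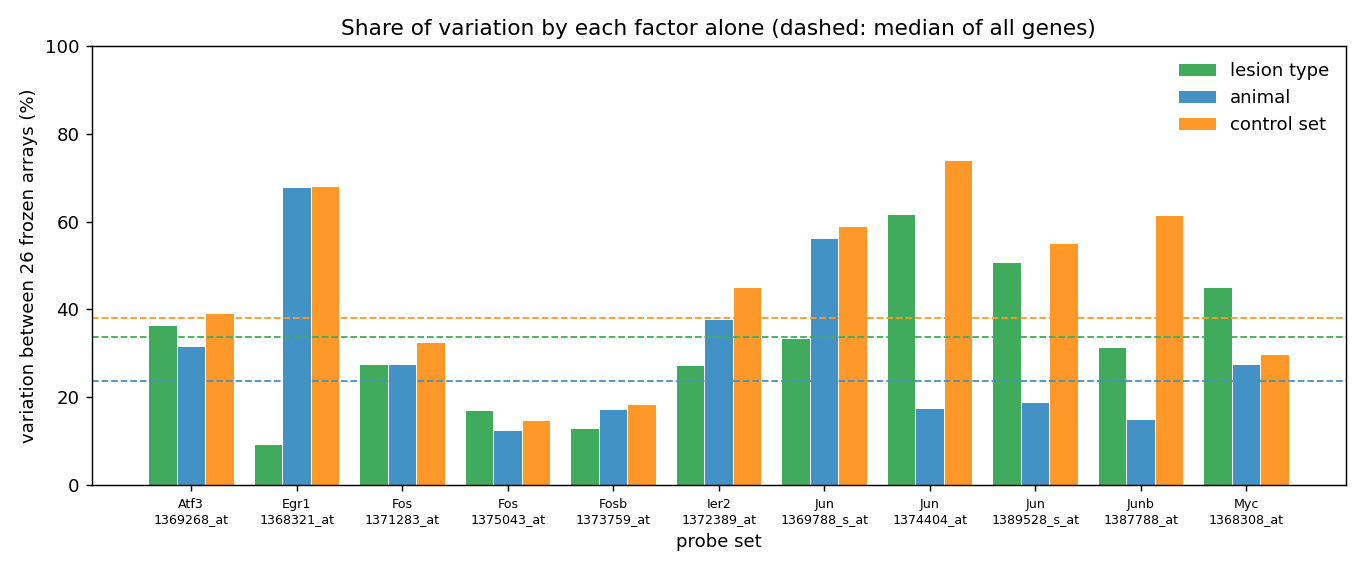
Share of the variation between the 26 frozen arrays (y axis, percent) taken up by lesion type, animal or control set alone for each of the 11 probe sets (x axis); dashed lines are the medians over all genes. Control sets lie within animals, so their share is never below that of the animal; Egr1 reaches 67.7% for animal with 9.23% for lesion type, and Jun 1374404_at 73.7% for control set.

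The 37 other immediate early genes gave mixed directions. In frozen adenomas 5 rose and 5 fell, in carcinomas 1 rose and 2 fell, and in beta-catenin carcinomas 2 rose and 3 fell. These shares lie near the 25.0%, 11.4% and 17.3% of all genes called in the same comparisons. FFPE foci had 1 rise and 1 fall and FFPE adenomas 1 rise. The median change of the list in adenomas was -0.06, beside 0.02 over all genes. Maff, a small Maf protein that pairs with Cap'n'collar factors, rose in all 5 of these comparisons, by 2.06 ± 0.44 in frozen adenomas (adjusted p = 0.00205), 1.77 ± 0.48 in carcinomas (adjusted p = 0.0188), 2.24 ± 0.46 in beta-catenin carcinomas (adjusted p = 0.00196), 2.67 ± 0.30 in foci (adjusted p = 1.7e-06) and 2.06 ± 0.34 in FFPE adenomas (adjusted p = 0.000465). Ccn2, a matricellular protein also known as connective tissue growth factor, rose by 2.41 ± 0.71 in adenomas (adjusted p = 0.0173). Zfp36 fell by 1.13 in adenomas (adjusted p = 0.0032) against surrounding liver of both kinds of set, of which that of the carcinoma sets was itself higher by 1.22, so this fall cannot be told apart from the set. Btg1, an antiproliferative gene, fell by 0.63 in carcinomas (adjusted p = 0.0106) and by 0.60 in foci (adjusted p = 0.0281), and Csrnp1, a nuclear protein induced by axin, fell by 0.62 in carcinomas (adjusted p = 0.0093). For animal, 2 of the 37 were called in frozen tissue (Per1, a clock gene, with F = 15.7 and adjusted p = 0.0012, and Cebpb, with F = 8.39 and adjusted p = 0.0257) and 6 in FFPE tissue, among them Jund, Ccn1 and Ier5.

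Genes upstream of the members and genes of stress were counted in the same way, beside 25.0% of all genes called in adenomas, 11.4% in carcinomas, 17.3% in beta-catenin carcinomas, 2.29% for frozen animal and 6.49% for FFPE animal. Of 14 kinases and serum response factor genes, 3 rose and 4 fell in adenomas, 1 rose and 2 fell in carcinomas and 4 fell in beta-catenin carcinomas. Egfr, the receptor for epidermal growth factor, fell in adenomas (-1.42, adjusted p = 0.0002), carcinomas (-1.65, adjusted p = 0.00041), beta-catenin carcinomas (-1.56, adjusted p = 0.00014), foci (-0.95, adjusted p = 0.004) and FFPE adenomas (-1.06, adjusted p = 0.0058). Of 8 heat shock genes, 3 were called for animal in frozen tissue, Dnajb1 (F = 16.7, adjusted p = 0.00079), Hsph1 (F = 13.6, adjusted p = 0.0025) and Dnaja1 (F = 8.58, adjusted p = 0.0235), and 3 in FFPE tissue. The mean level of the heat shock list was 9.50 to 9.70 in animal 11 and 9.25 to 9.49 in animal 10, while animals 14, 21 and 23 had 9.46 to 10.20. Of 15 acute phase and cytokine genes 1 was called for animal in frozen tissue (Il1b, F = 7.31, adjusted p = 0.0426). Of 12 hypoxia genes 2 rose and 1 fell in adenomas, and Egln3, an oxygen-sensing prolyl hydroxylase, rose by 1.37 there (adjusted p = 0.0064) and by 1.60 in foci (adjusted p = 0.00065). Of 9 other bZIP partners 3 fell in adenomas, Atf2 (-0.95, adjusted p = 0.0055), Maf (-0.58, adjusted p = 0.0189) and Atf4 (-0.34, adjusted p = 0.0128). Atf2 was itself higher by 1.27 in surrounding liver of carcinoma sets, which hold no adenoma (adjusted p = 0.002), so its fall cannot be told apart from the set. The mean level of the 9 partners, Atf2 included, was 7.32 to 7.43 there and 7.11 to 7.30 in surrounding liver of the other sets. The count of 3 falls therefore has the same limit.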

How the data were processed

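RNA of 47 liver samples was measured on Affymetrix rat arrays. The deposited values are log2 probe set summaries; the sources used here do not give how the authors corrected, summarized and normalized them. Frozen RNA was isolated with TRIzol and miRNeasy and FFPE RNA, after laser microdissection, with an RNeasy FFPE kit, per the labels' protocols. Of 31042 probe sets, 20826 name 1 gene, 436 several and 9780 none; the last 2 kinds stayed out of gene counts.

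Samples were grouped by their group label. The animal comes from the title and control set, since the source-animal field gives several numbers for animal 21. Beta-catenin carcinoma replicate 1 and FFPE adenoma replicate 4 have source names that go against their group and were kept. The 3 C43 normal arrays entered no comparison, as their labels also call them surrounding tissue.

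Each fixation was fitted apart in limma 3.58.1 (R 4.3.3) on group plus animal with an intensity trend, on 1 probe set a gene (highest mean), leaving 17 residual degrees of freedom (frozen) or 12 (FFPE). P-values were adjusted over 14217 genes (Benjamini-Hochberg, called under 0.05), or over 31042 probe sets where so stated. The 7 frozen surrounding arrays were compared by kind of control set without an animal term. Samples of 1 animal are not independent beyond that term, and the number of arrays limits precision. Animals pair the samples, since a rat gave both its lesions and its surrounding liver. Arrays of 1 rat deviated from their groups with a median correlation of 0.127 (frozen, 50 pairs) or 0.11 (FFPE, 23 pairs), and arrays of different rats with -0.025 or -0.0395. P-values measure only the spread between these samples.

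Alternatives were no animal term, the animal as random block, the control set as block, other probe set rules, a filter on dim genes, quantile normalization, no trend and each array left out; the fits without animal 11 or control set 21 N were chosen after seeing the data. The fit was also run on simulated data with independent noise for each array. These held no animal effect, so they did not test it for arrays that share a rat. The members and gene lists were chosen with earlier results of these data known. Named genes are the members, the 3 largest called changes of a list, and the 2 genes most correlated with a member.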

Additional observations from a re-analysis of the deposited data

Results flagged for a closer look

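In the frozen surrounding liver, 3 values on 2 arrays stood far from the rest of their group by Dixon's test at the 95% level. Fos 1375043_at had 7.15 in replicate 5, from animal 21, with the nearest at 4.39, and Fosb had 4.53 in the same sample, with the nearest at 3.57. Egr1 had 10.74 in replicate 3, from animal 11, with the nearest at 8.52; both lesions of that animal were high too.

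In FFPE tissue, Junb had 6.42 in the surrounding sample of animal 14 (replicate 2), with the nearest at 7.92, and Jun 1389528_s_at had 6.50 in that of animal 18 (replicate 3), with the nearest at 7.68. Myc had 7.32 in foci replicate 6, from animal 18, with the nearest at 8.41. Chance flags about 1 in 20 groups, and 6 of 88 groups of 4 to 10 arrays were flagged.

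The FFPE array named C43 normal, used in no comparison, had 7.995 for Jun 1389528_s_at and 4.72 for Atf3, above all 4 FFPE surrounding arrays, which reached 7.88 and 4.50.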

How the results depend on the processing

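The rise of Myc in frozen adenomas and in both carcinoma groups kept its direction and its call in all 11 fits that leave out no single array, the reported one included, with changes of 0.84 to 1.45, 0.90 to 1.14 and 1.04 to 1.30. Of 135 recomputed counts of called members, 118 were within 1.5 times the reported one. Most reported counts were 0 or 1, so this share says little about stability. With no replicate block (no animal term) or the animal as a random block, 2 members were called for lesion type in frozen tissue in place of 1 and 3 in frozen adenomas in place of 2, and no other count of members changed. With the animal as a block, 1 was called for the kinds of control set in place of 0. Called members in frozen adenomas fell to 1 with the control set as block, among genes at or above the median level, with quantile normalization and without animal 11. With every probe set tested, the recomputed counts took only the probe set that stands for a gene, which gave 1 in frozen adenomas. Over all 11 probe sets of the members, 2 were called there, Myc and Jun 1374404_at. Counted that way, lesion type also gave 2. Control set within animal and the kinds of control set gave 1 each, Jun 1374404_at. Carcinomas over adenomas gave 1 among the brighter genes. Lesion type gave 3 without control set 21 N, and animal gave 1 without animal 11. FFPE foci gave 2 among the brighter genes and 2 with quantile normalization. FFPE animal gave 2 with the mean of a gene's probe sets, 2 among the brighter genes, 3 with quantile normalization and 0 without the trend. With each array left out, the counts ran from 1 to 3 in adenomas, 0 to 1 in carcinomas, 1 to 2 in beta-catenin carcinomas, 0 to 1 for carcinomas over adenomas, 1 to 4 for lesion type, 0 to 1 for control set within animal, 0 to 1 in FFPE foci, 0 to 1 for FFPE lesion type and 0 to 2 for FFPE animal. Egr1 in adenomas over nodules reversed to -0.25 with no animal term and to -0.061 with a random block, from 1.10 in the reported fit. Over all genes, adenomas gave 3555 calls and 2122 with the control set as block, carcinomas over adenomas 419 and 2322 with no animal term, and FFPE animal 922 and 424 without the trend. Except where the setting leaves out samples or genes, the cause was not tested. With no detection calls used, it cannot be said how far the dim probe sets of Fos and Fosb stood above background.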
